A study of Mus musculus with 9 samples.

Results

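The genes described here are 10 imprinted genes known for growth control or for roles in the nervous system, *H19*, *Igf2*, *Dlk1*, *Peg3*, *Mest*, *Nnat*, *Blcap*, *Cdkn1c*, *Grb10* and *Ube3a*. They were chosen by name, and every RefSeq transcript row of these genes in the count table was used, row by row and as a sum per gene. That gave 46 of 107384 transcript rows and 10 of 32899 genes, of which 9 are protein-coding and *H19* is a long noncoding RNA. RNA was measured by RIP-seq, in which an antibody pulls down a protein and the RNA bound to it is sequenced. All 9 libraries came from the cytoplasmic fraction of cortices of newborn (P0) mice heterozygous for the *Celf2* knock-in (KI) variant p.R493H. The 3 CELF2-KI RIP libraries used 10 µg of rabbit anti-CELF2 antibody for 3 hours, the 3 IgG RIP libraries used normal rabbit IgG in its place, and the 3 input libraries came from lysate kept back before any antibody was added. Every condition thus carries the KI allele in a heterozygous state, a normal *Celf2* allele is present in all of them, and no RIP from animals without the KI was analysed here. The labels call the 3 libraries of a condition biological replicates and do not say how many animals each one held.

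Imprinted genes are expressed mainly or only from the allele inherited from one parent, and many of them promote or restrain growth of the fetus and the newborn. In most tissues, though not in all, *Igf2*, *Dlk1*, *Peg3*, *Mest* and *Nnat* are expressed from the paternal allele, and *H19* and *Cdkn1c* from the maternal allele. *Ube3a* and *Grb10* have a parental bias that differs between neurons and other cells. Counts per transcript do not separate the parental alleles, so every value below is the sum of both. CELF2 is an RNA-binding protein that acts on splicing in the nucleus and on the stability and translation of mRNAs in the cytoplasm. A gene higher in CELF2-KI RIP than in IgG RIP and in input came down with the CELF2 antibody more than with a nonspecific antibody and more than its level in the lysate gives.

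On the mouse assembly GRCm38.p6, *H19* (chr7:142575530-142578146) and *Igf2* (chr7:142650768-142666816) lie 72621 bases apart, and *Cdkn1c* (chr7:143458339-143461059) lies in the neighbouring domain of chromosome 7. *Peg3* (chr7:6703892-6730462) and *Ube3a* (chr7:59228750-59310837) are on the same chromosome but far from them. *Nnat* (chr2:157560078-157562525) lies with its whole span of 2448 bases inside *Blcap* (chr2:157556362-157566361), on the opposite strand. *Mest* (chr6:30733506-30748466) shares 913 bases with *Copg2*, which runs on the opposite strand. *Grb10* (chr11:11930499-12037428) and *Dlk1* (chr12:109452485-109463336) complete the set.

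The spans of *H19*, *Igf2* and *Mest* each hold a microRNA gene, and their mature sequences are shown because they are the other RNA products of these loci. They are from RefSeq on GRCm38.p6, written 5′ to 3′, with the seed (bases 2 to 8, which pairs with target mRNAs) in capitals.
miR-675-5p (in *H19*): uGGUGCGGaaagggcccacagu
miR-675-3p (in *H19*): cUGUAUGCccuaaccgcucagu
miR-483-5p (in *Igf2*): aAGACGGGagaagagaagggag
miR-483-3p (in *Igf2*): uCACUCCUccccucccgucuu
miR-335-5p (in *Mest*): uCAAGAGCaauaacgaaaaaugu
miR-335-3p (in *Mest*): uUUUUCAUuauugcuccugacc
No seed is shared among the 6 arms. The 3 hairpin rows, *Mir675*, *Mir483* and *Mir335*, were at 0 in all 9 libraries, so no reads were assigned to them. The values below are those of the rows of the host genes. These were not small RNA libraries, and the mature arms were not measured.

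Total estimated counts were 15919600 to 20052716 in CELF2-KI RIP, 17365561 to 28773130 in IgG RIP and 69125700 to 105116427 in input, so a level in input rests on the most reads. Rows that the gene table did not name took 11.6% to 12.6% of counts in CELF2-KI RIP and 9.27% to 9.78% in input. In IgG RIP they took 21.1% to 43.5%, and IgG RIP replicate 3 stood apart from the other two at the low end. The 10 cortical neuron markers, among them *Tubb3*, *Map2* and *Tbr1*, were detected in every condition, with a summed level of 3544 to 3924 CPM in input. Levels are given in CPM, counts scaled to a common total of protein-coding reads with the trimmed mean of M values (TMM) correction, and are compared between libraries, not between genes. A gene was called changed at a false discovery rate (FDR) under 0.01 and at least 2-fold in edgeR's quasi-likelihood test with Benjamini-Hochberg adjustment over all genes tested.

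All 10 genes passed the filter on low counts. Against IgG RIP, *H19*, *Blcap* and *Grb10* were higher in CELF2-KI RIP and *Mest* and *Cdkn1c* were lower. The background among all 15263 protein-coding genes tested was 13.4% called higher and 13.5% called lower, and in the fit that also holds the noncoding genes, from which *H19* was taken, it was 11.1% and 12.4%. Against input, *H19*, *Peg3* and *Blcap* were higher and *Igf2*, *Nnat* and *Cdkn1c* were lower, with a background of 14.6% higher and 15.5% lower (16.7% and 12.8% with noncoding genes). *H19* and *Blcap* were higher than both controls and *Cdkn1c* was lower than both. For protein-coding genes the background of such a double call was 7.58% higher and 9.52% lower, and with noncoding genes it was 6.3% and 7.76%. Across the 10 genes the log2 fold changes had a median of 0.46 against IgG RIP and of 0.38 against input, beside -0.06 and 0.19 over all protein-coding genes. The medians hide opposite movements, since the single genes spanned -2.64 to 2.68 against IgG RIP and -2.42 to 1.85 against input.

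**Figure D1:**
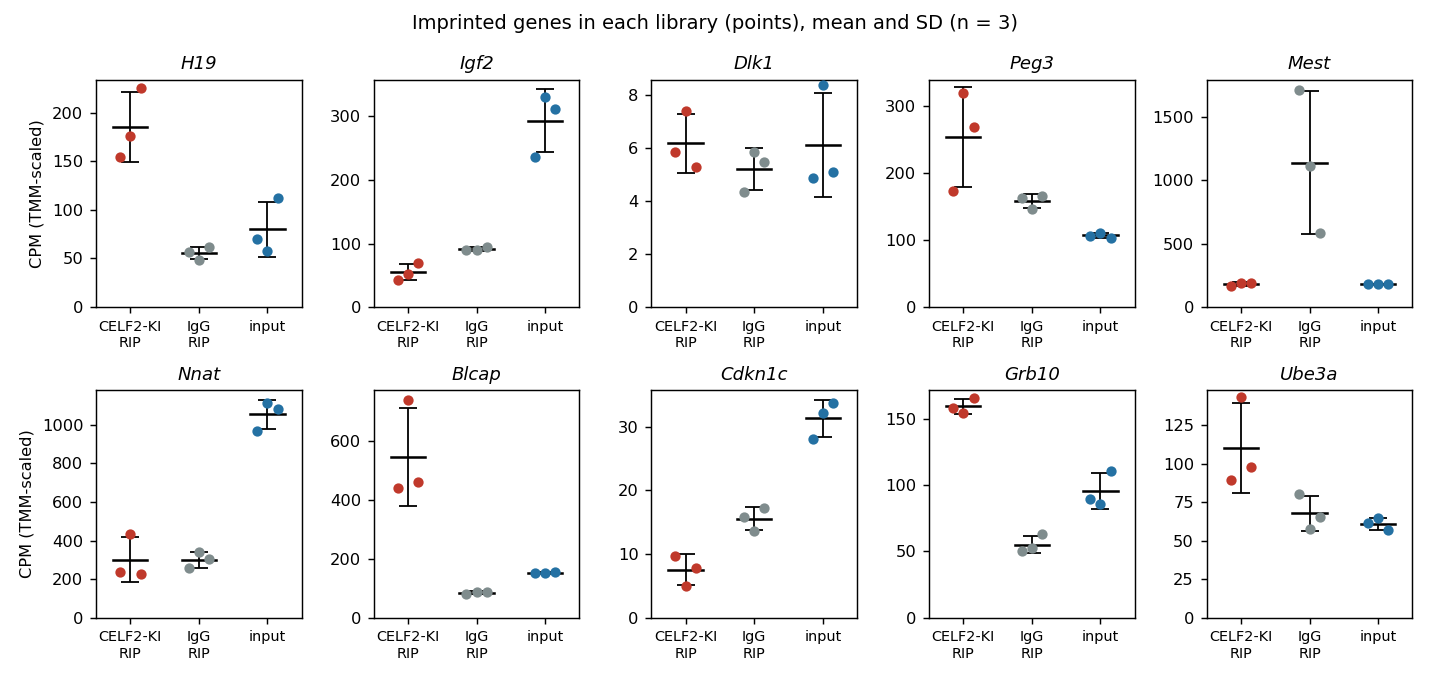
Level of each of the 10 imprinted genes in each library (points, TMM-scaled CPM, linear axes from 0) with the mean and SD of 3 libraries per condition. *Blcap* and *H19* are highest in CELF2-KI RIP, *Mest* is high in IgG RIP only, and *Igf2*, *Nnat* and *Cdkn1c* are highest in input.

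*H19* is the maternally expressed noncoding RNA of the *Igf2* domain and the host transcript of miR-675. It stood at 154, 176 and 225 CPM in the CELF2-KI RIP libraries, at 56.7, 48.6 and 61.6 CPM in IgG RIP, and at 69.9, 58.0 and 112 CPM in input. Each CELF2-KI RIP library exceeded all 6 controls, while IgG RIP and input overlapped. The log2 fold change was 1.73 ± 0.24 (SE) against IgG RIP (edgeR FDR = 0.000203) and 1.21 ± 0.24 against input (edgeR FDR = 0.00145). Against each other, IgG RIP and input differed by -0.52 ± 0.23 (edgeR FDR = 0.0943), which was no call. The call against input was lost without input replicate 2 (0.91, edgeR FDR = 0.0108) and with scaling to total counts (0.75, edgeR FDR = 0.0177). Tested against a 2-fold change (edgeR's glmTreat), both calls were lost (FDR = 0.0161 against IgG RIP and 0.252 against input). Of its 2 rows, NR_130973.1 carried nearly all counts, with 150, 172 and 220 CPM in CELF2-KI RIP. That row was called higher than IgG RIP by itself (1.77 ± 0.27, edgeR FDR = 0.00463 over all rows).

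*Igf2*, a growth factor that signals through the IGF1 receptor and the insulin receptor, went the other way from its neighbour *H19*. It stood at 43.2, 52.3 and 68.7 CPM in CELF2-KI RIP, at 90.1, 89.5 and 94.4 CPM in IgG RIP, and at 237, 331 and 312 CPM in input. No 2 conditions overlapped, and the order was input, IgG RIP, CELF2-KI RIP. *Igf2* was lower than input in both RIPs, by a log2 fold change of -2.42 ± 0.18 in CELF2-KI RIP (edgeR FDR = 4.89e-06) and of -1.68 ± 0.18 in IgG RIP (edgeR FDR = 0.000195). The difference between the RIPs was -0.74 ± 0.18 (edgeR FDR = 0.00516), short of 2-fold and so not called. With scaling to total counts it was -1.11 and called. Input was kept back from the lysate used for the RIPs. RIP and input thus differ in the RNA recovered, and each level is a sum over all cell types in the lysate. In the brain *Igf2* is known to be made mainly by the leptomeninges, the choroid plexus and cells of vessels. The 12 leptomeninges markers summed to 1240 to 2176 CPM in CELF2-KI RIP, 1417 to 2080 in IgG RIP and 832 to 1231 in input. The 8 choroid plexus markers summed to 142 to 198, 109 to 249 and 262 to 584 CPM in the same order. The 7 pericyte markers summed to 439 to 494, 472 to 612 and 503 to 592 CPM, and the 7 endothelium markers to 178 to 257, 164 to 366 and 215 to 338 CPM. *Col1a1*, *Col1a2* and *Col3a1* carried most of the leptomeninges sum, with means of 514, 666 and 428 CPM in CELF2-KI RIP and 304, 309 and 245 in input. *Ttr* carried most of the choroid plexus sum in input, with means of 43.8 CPM in CELF2-KI RIP, 106 in IgG RIP and 327 in input. Of the 12 leptomeninges markers, 5 were called lower and 1 higher in CELF2-KI RIP than in input, with a median log2 fold change of -0.31. Of the 8 choroid plexus markers, 1 was called lower and 0 higher in that comparison. Their median was -0.16, and 3 of the 8 had positive values. The shares over all protein-coding genes were 15.5% and 14.6%. None of the markers of these 4 lists was at 0 throughout a condition, and their part in the result was not tested.

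Single rows of *Igf2* did not move together. NM_001122737.2 was at 0 in all 3 CELF2-KI RIP libraries, where 3 counts would be 0.231 to 0.268 CPM. In IgG RIP it had 41.9, 31.2 and 11.9 CPM, and in input it took the largest share of the gene's counts, with 143, 217 and 161 CPM or 51.7% to 65.6%. Taking 3 counts per library as the limit, it was at least 115-fold lower in CELF2-KI RIP than in IgG RIP (edgeR FDR = 0.00134 over all rows) and at least 705-fold lower than in input (edgeR FDR = 0.000826). NM_010514.3, in contrast, had 25.6, 33.3 and 40.1 CPM in CELF2-KI RIP against 19.5, 18.2 and 17.7 CPM in IgG RIP. That difference, 0.83 on the log2 scale, was not called (edgeR FDR = 0.0961). In input it had 40.6, 37.9 and 70.9 CPM. NM_001315489.1 was lower than input (-1.52 ± 0.25, edgeR FDR = 0.00647) and stood at -0.62 against IgG RIP (edgeR FDR = 0.158). With NM_001122737.2 left out, a choice made after its values were seen, the other rows summed to 54.7 ± 12.9 CPM (SD, n = 3) in CELF2-KI RIP, 63.0 ± 17.7 in IgG RIP and 119 ± 28.6 in input. On those rows the RIPs overlapped, and both stayed below input. Rows of a gene share sequence, and pseudoalignment divides the shared reads among them, so row values are estimates and a row at 0 is a row to which no reads were assigned.

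**Figure D2:**
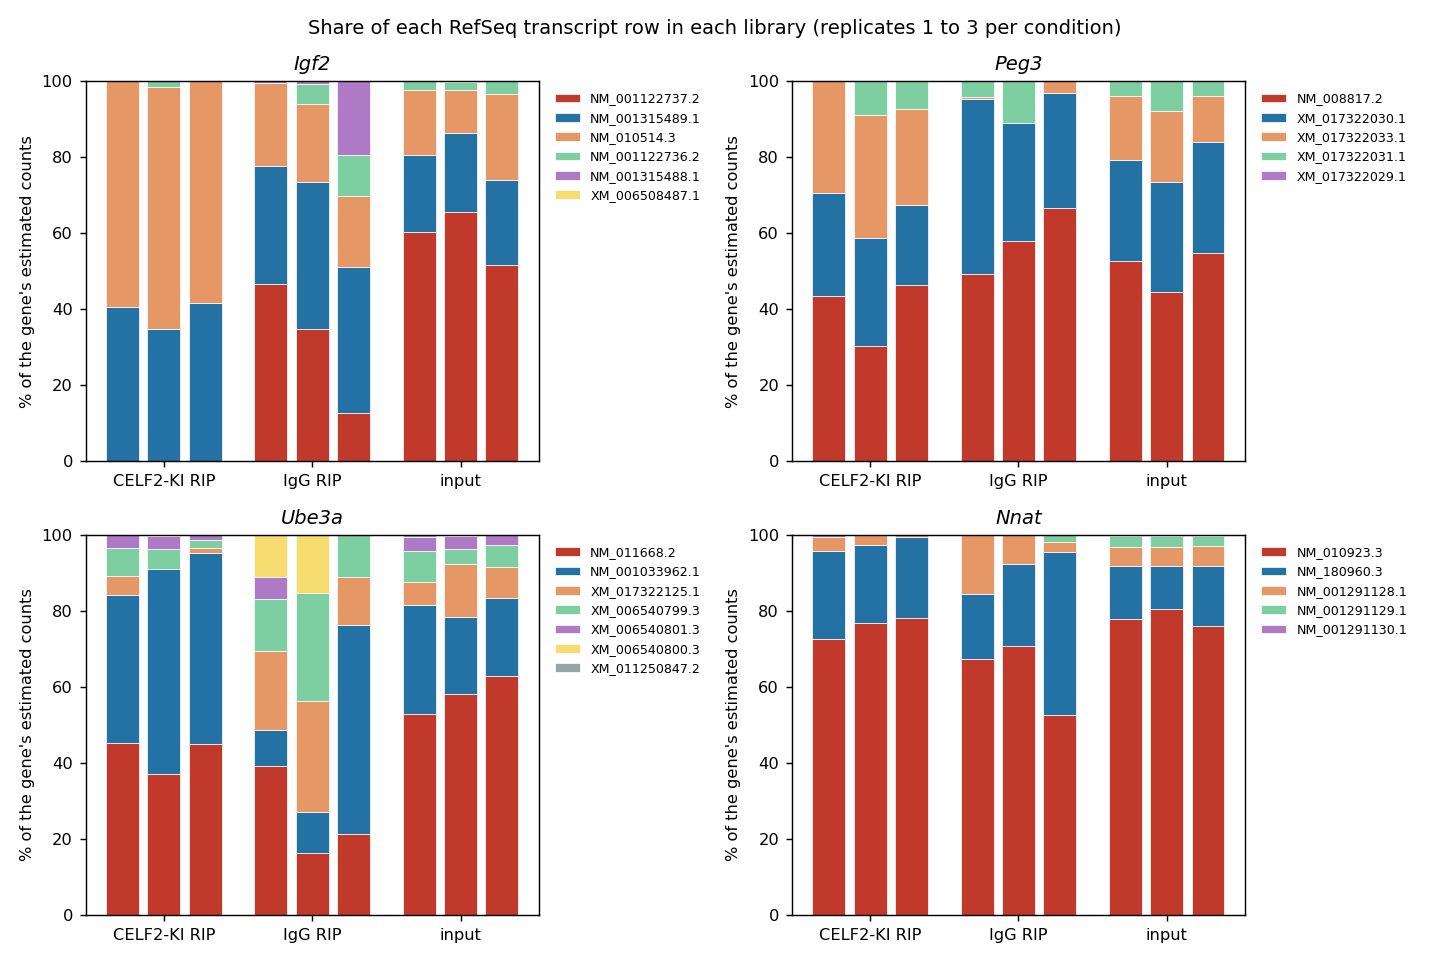
Share of each RefSeq transcript row in the estimated counts of *Igf2*, *Peg3*, *Ube3a* and *Nnat* (percent, 1 bar per library, replicates 1 to 3 from left to right in each condition). NM_001122737.2 makes up 51.7% to 65.6% of *Igf2* in input and none of it in CELF2-KI RIP. The shares of *Ube3a* rows vary widely between the IgG RIP replicates.

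*Grb10* encodes an adaptor that binds the activated insulin and IGF1 receptors and dampens their signal. It had 158, 154 and 166 CPM in CELF2-KI RIP, against 50.4, 52.3 and 62.8 CPM in IgG RIP, and 89.3, 86.0 and 111 CPM in input. The conditions did not overlap and the order was CELF2-KI RIP, input, IgG RIP. It was higher in CELF2-KI RIP than in IgG RIP by 1.53 ± 0.13 on the log2 scale (edgeR FDR = 1.39e-05). Over input the difference was 0.74 ± 0.13 (edgeR FDR = 0.000721), past the FDR threshold and under 2-fold. NM_010345.4 carried most of the gene in every library and was called higher than IgG RIP by itself (1.46 ± 0.14, edgeR FDR = 0.000847). NM_001177629.1 had 13.6 and 9.24 CPM in CELF2-KI RIP replicates 2 and 3 and was at 0 in replicate 1 and in all IgG RIP libraries. *LOC102631979*, a long noncoding RNA inside the span of *Grb10* on the same strand, was high in IgG RIP instead. It had 20.04 CPM there on average, 7.73 in CELF2-KI RIP and 4.03 in input.

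*Cdkn1c* encodes the cyclin-dependent kinase inhibitor p57KIP2, which takes progenitor cells out of the cell cycle. It had 9.76, 5.01 and 7.85 CPM in CELF2-KI RIP, against 15.9, 13.6 and 17.2 CPM in IgG RIP, and 28.1, 32.1 and 33.7 CPM in input. No conditions overlapped, with the order input, IgG RIP, CELF2-KI RIP as for *Igf2*. It was lower in CELF2-KI RIP than in IgG RIP (-1.05 ± 0.23, edgeR FDR = 0.00268) and than in input (-2.06 ± 0.22, edgeR FDR = 3.61e-05), and lower in IgG RIP than in input (-1.01 ± 0.21, edgeR FDR = 0.00482). The first call sat at the 2-fold threshold. It was lost without CELF2-KI RIP replicate 2 (-0.82) or IgG RIP replicate 3 (-0.98), and over the 2 curated rows alone the difference was -0.09 (edgeR FDR = 0.965). The call of IgG RIP against input was lost without IgG RIP replicate 1 (-1.02, edgeR FDR = 0.0168), without IgG RIP replicate 2 (-0.93), and without input replicate 1 (-1.10, edgeR FDR = 0.0129), 2 (-0.999) or 3 (-0.97), and over the curated rows (-2.94 ± 1.42, edgeR FDR = 0.172), where the call against input was lost too (-3.03 ± 1.42, edgeR FDR = 0.119). Reads of *Cdkn1c* were divided over 6 rows, which all missed the threshold. The lowest edgeR FDR was 0.089 against IgG RIP, 0.255 against input and 0.0427 between IgG RIP and input. Against IgG RIP the rows differed in direction. The 0.089 belonged to XM_006508470.3, whose mean was higher in CELF2-KI RIP, at least 3.21-fold with 3 counts per library as the limit. That row was at 0 in CELF2-KI RIP replicate 2, so this bound is for the mean and not for each library. NM_009876.4 stood at 0.25, and the other rows were lower, at -0.40 to -2.61. XM_006508470.3 also gave the 0.0427, being lower in IgG RIP than in input, where XM_006508467.3 (1.85) and XM_006508469.3 (0.78) were higher.

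*Dlk1*, a membrane protein with EGF-like repeats that resembles Notch ligands, was measured with few counts. It had 5.84, 7.39 and 5.27 CPM in CELF2-KI RIP, against 4.32, 5.85 and 5.45 CPM in IgG RIP, and 4.85, 8.35 and 5.08 CPM in input. All 3 conditions overlapped. The log2 fold change was 0.25 ± 0.27 against IgG RIP (edgeR FDR = 0.467) and 0.02 ± 0.27 against input (edgeR FDR = 0.959), and its sign depended on the scaling. Most counts fell on the predicted rows XM_006515457.3 and XM_011243992.2. NM_010052.5 was at 0 in all libraries but IgG RIP replicate 3, where it had 0.34 CPM.

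*Peg3* encodes a zinc finger protein of the paternally expressed set that is known for effects on growth and maternal care. It had 174, 320 and 268 CPM in CELF2-KI RIP, against 164, 147 and 166 CPM in IgG RIP, and 107, 110 and 104 CPM in input. The conditions did not overlap, although the lowest CELF2-KI RIP library lay close to the highest IgG RIP library. *Peg3* was higher in CELF2-KI RIP than in input (1.25 ± 0.19, edgeR FDR = 0.000254), and the difference from IgG RIP, 0.68 ± 0.19, was not called (edgeR FDR = 0.0106). With scaling to total counts the difference from input was 0.77 and not called.

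The higher level of *Peg3* in CELF2-KI RIP than in IgG RIP came largely from a single predicted row. XM_017322033.1 had 51.1, 104 and 67.4 CPM in CELF2-KI RIP, against 0.71, 0.00 and 5.10 CPM in IgG RIP, and 17.9, 20.6 and 12.5 CPM in input. Its libraries separated completely, yet the log2 fold change against IgG RIP, 5.25 ± 1.29, was not called over all rows (edgeR FDR = 0.0329). The curated row NM_008817.2 had 75.7, 96.7 and 124 CPM in CELF2-KI RIP, overlapping with the 80.4, 85.0 and 110 CPM of IgG RIP. In input it had 56.3, 49.0 and 56.8 CPM. On the curated row alone *Peg3* stood at -0.04 ± 0.19 against IgG RIP (edgeR FDR = 0.897) and at 0.85 ± 0.19 against input (edgeR FDR = 0.00653, under 2-fold). Without XM_017322033.1, again a choice made with the values in view, the other rows summed to 180 ± 50.3 CPM (SD, n = 3) in CELF2-KI RIP, 157 ± 8.78 in IgG RIP and 89.9 ± 1.30 in input. The call of *Peg3* against input therefore depended on which transcripts were counted.

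*Mest* encodes a paternally expressed protein of the alpha/beta hydrolase fold. It had 1713, 1109 and 586 CPM in IgG RIP, but only 166, 189 and 193 CPM in CELF2-KI RIP, and 180, 184 and 183 CPM in input. The IgG RIP libraries lay above all others and differed widely among themselves. *Mest* was lower in CELF2-KI RIP than in IgG RIP (-2.64 ± 0.31, edgeR FDR = 6.33e-05) and higher in IgG RIP than in input (2.64 ± 0.31, edgeR FDR = 0.000287). Against input, CELF2-KI RIP differed by 0.0020 ± 0.29 (edgeR FDR = 0.995), and the sign of that difference changed with the scaling. Of its 4 rows, 3 had counts and all 3 were highest in IgG RIP. NM_008590.2 (-2.61 ± 0.38, edgeR FDR = 0.00339) and XM_017321427.1 (-2.30 ± 0.31, edgeR FDR = 0.00251) were called lower in CELF2-KI RIP than in IgG RIP, and NM_001252292.1 was at 0 throughout. The share of counts on rows without a gene name fell in the same order as *Mest* over the IgG RIP libraries, with 43.5%, 41.5% and 21.1% in replicates 1, 2 and 3, and its part in the result was not tested.

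*Copg2*, the imprinted coatomer gene that overlaps the end of *Mest* on the other strand, showed the same excess. It had 874, 442 and 313 CPM in IgG RIP, 102, 89.2 and 93.6 CPM in CELF2-KI RIP, and 79.2, 79.6 and 56.9 CPM in input. It was higher in IgG RIP than in input by 2.92 ± 0.33 (edgeR FDR = 0.000251) and lower in CELF2-KI RIP than in IgG RIP by -2.52 ± 0.33 (edgeR FDR = 0.000119). The libraries were made directionally, but the sources used here do not state whether strand was used when reads were assigned, so reads of the shared 913 bases cannot be told apart.

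*Nnat* and *Blcap* occupy the same locus on opposite strands. CELF2-KI RIP was called lower than input for *Nnat* and higher for *Blcap*, while IgG RIP lay below input for both. *Nnat* encodes neuronatin, a small membrane protein of developing neurons, and stood at 238, 435 and 226 CPM in CELF2-KI RIP, against 257, 339 and 303 CPM in IgG RIP, and 969, 1111 and 1084 CPM in input. The RIPs overlapped with each other and lay far below input. CELF2-KI RIP was lower than input by a log2 fold change of -1.81 ± 0.23 (edgeR FDR = 9.52e-05), and so was IgG RIP (-1.81 ± 0.23, edgeR FDR = 0.000421). The RIPs differed by -0.00059 ± 0.23 (edgeR FDR = 0.999). NM_010923.3, the main row, was called lower than input in both RIPs. NM_001291129.1 was at 0 in all 3 CELF2-KI RIP libraries and had 25.8, 32.4 and 29.1 CPM in input, at least 118-fold lower, a difference that was not called over all rows (edgeR FDR = 0.0518).

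*Blcap* encodes a small membrane protein first described in bladder cancer, and its transcripts are known targets of adenosine-to-inosine editing. It had 441, 739 and 462 CPM in CELF2-KI RIP, against 79.6, 88.9 and 88.2 CPM in IgG RIP, and 151, 151 and 154 CPM in input. The lowest CELF2-KI RIP library was well above the highest control, and the controls were tight. *Blcap* was higher than IgG RIP by 2.68 ± 0.19 (edgeR FDR = 7.77e-06) and higher than input by 1.85 ± 0.18 (edgeR FDR = 2.09e-05). IgG RIP lay below input by -0.83 ± 0.18 (edgeR FDR = 0.0052, under 2-fold). Both calls of CELF2-KI RIP held without any single library. *Blcap* had 1 row in the table, NM_016916.3, so it had no division of reads among its own transcripts, though its span contains *Nnat*.

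*Ube3a* encodes the E3 ubiquitin ligase whose loss from the maternal allele causes Angelman syndrome. It had 89.6, 143 and 97.9 CPM in CELF2-KI RIP, against 80.2, 57.9 and 65.2 CPM in IgG RIP, and 61.4, 65.0 and 57.1 CPM in input. Each CELF2-KI RIP library exceeded all of the controls, and IgG RIP overlapped with input. The difference was 0.70 ± 0.19 against IgG RIP (edgeR FDR = 0.00905) and 0.85 ± 0.19 against input (edgeR FDR = 0.00266), past the FDR threshold in both cases and under 2-fold. Over its 2 curated rows alone the differences were 1.38 ± 0.38 (edgeR FDR = 0.0173) and 0.99 ± 0.37 (edgeR FDR = 0.0584), which were not called. Within the gene, NM_001033962.1 had 35.0, 77.4 and 49.4 CPM in CELF2-KI RIP, against 7.70, 6.22 and 35.8 CPM in IgG RIP, and 17.5, 13.1 and 11.8 CPM in input. NM_011668.2 had 40.4, 53.1 and 43.9 CPM in CELF2-KI RIP, against 31.3, 9.37 and 13.9 CPM in IgG RIP, and 32.5, 37.7 and 35.9 CPM in input. In input NM_011668.2 was the larger row in every library, and in CELF2-KI RIP replicates 2 and 3 NM_001033962.1 was. All *Ube3a* rows missed the threshold over all rows, with a lowest edgeR FDR of 0.0745 against IgG RIP and 0.1 against input.

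**Figure D3:**
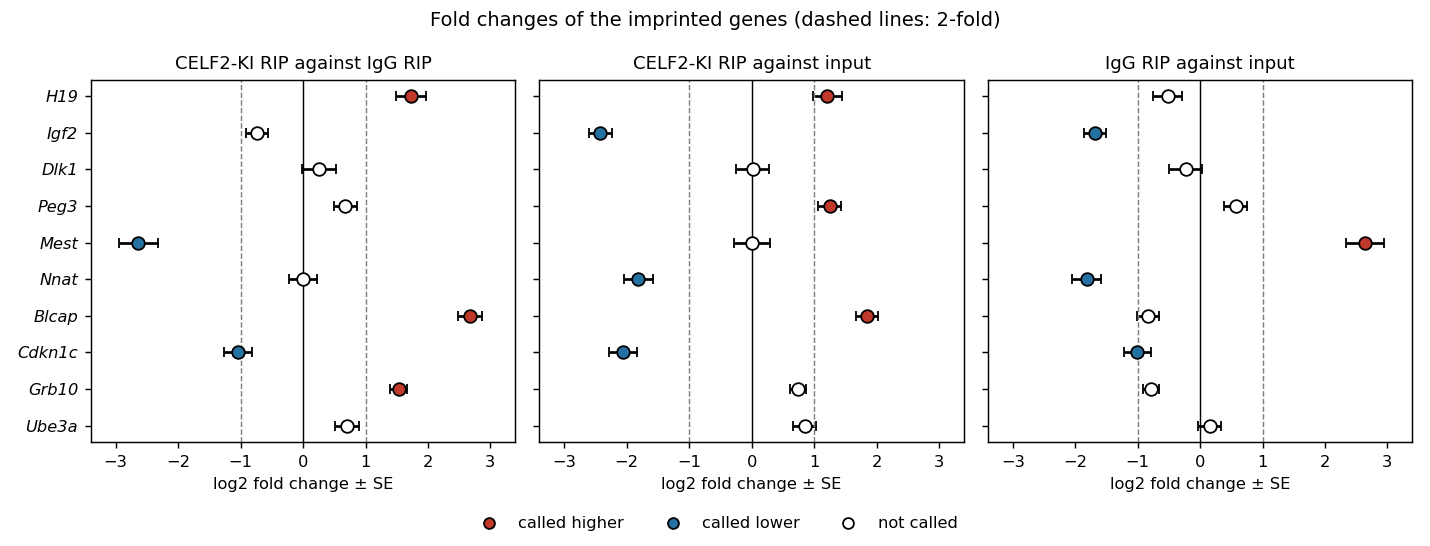
Log2 fold change ± SE of each gene from the edgeR fit in the 3 comparisons (red called higher, blue called lower, white not called, dashed lines at 2-fold). *H19* and *Blcap* are red in both comparisons of CELF2-KI RIP, *Cdkn1c* is blue in all 3, and *Mest* changes only where IgG RIP takes part.

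Over the whole set, *Peg3*, *Blcap*, *Grb10* and *Ube3a* of the 9 protein-coding genes, and *H19*, had each CELF2-KI RIP library above the 6 controls, a separation found for 25.2% of protein-coding genes (30% when only the IgG RIP libraries are considered). *Igf2* and *Cdkn1c* had each of them below, as did 19.9% of protein-coding genes, and with *Mest* they were the 3 genes below all IgG RIP libraries (27.4%). Between IgG RIP and input, *Mest* was the gene called higher and *Igf2*, *Nnat* and *Cdkn1c* were called lower, with a background of 6.79% higher and 5.01% lower (13.7% and 4.29% with noncoding genes). The 3 genes lower in both RIPs than in input therefore include *Cdkn1c*, which was called against both controls. The 3 comparisons share libraries, so a gene high or low in 1 condition enters 2 of them. In the 7 erythroid markers the summed level was 93.8 to 96.5 CPM in CELF2-KI RIP, 370 to 585 in IgG RIP and 878 to 1136 in input, and in the 8 radial glia markers it was 510 to 968, 768 to 853 and 1167 to 1369 CPM. Both sums were thus lower in the RIPs than in input, as were *Igf2* and *Cdkn1c*, and their part in those results was not tested. Not every marker followed its sum. Means in IgG RIP and input were 27.2 and 18.0 CPM for *Alas2*, 3.10 and 1.58 for *Slc4a1*, and 114 and 81.7 for *Nes*. *Pax6* had 14.8 CPM in CELF2-KI RIP and 14.6 in input. *Slc1a3*, the largest of the radial glia markers, had 342 to 710 CPM in CELF2-KI RIP, 310 to 351 in IgG RIP and 588 to 746 in input. For that gene CELF2-KI RIP and input overlapped. The 7 microglia markers summed to 93.4 to 127, 59.3 to 79.8 and 131 to 167 CPM, with *P2ry12* at 0 in both RIPs and *Csf1r* at 0 in input, and the cortical neuron markers to 3157 to 3602 CPM in IgG RIP and 4336 to 5086 CPM in CELF2-KI RIP.

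Row by row, 36 of the 46 rows passed the filter. CELF2-KI RIP had 3 rows above and 3 below IgG RIP by this call (background over 43019 rows, 4.32% and 2.33%), and 1 row above and 3 below input (3.57% and 2.89%). In IgG RIP, 2 were higher and 1 was lower than in input (1.76% and 1.03%). The row called higher than both controls was that of *Blcap* (NM_016916.3), and the row called lower than both was NM_001122737.2 of *Igf2*.

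The insulin-like growth factor axis gives the partners of *Igf2* and *Grb10*. Of its 16 genes, CELF2-KI RIP had 3 called higher and 3 lower against IgG RIP, and 5 higher and 3 lower against input, with median log2 fold changes of 0.76 and 0.65. The shares over all protein-coding genes were 13.4% and 13.5% against IgG RIP, 14.6% and 15.5% against input, and 7.58% and 9.52% against both. *Irs1*, the adaptor that passes the receptor signal on, was higher than both controls (1.36 ± 0.17 and 1.52 ± 0.17), as was *Igfbp4*, a binding protein that limits IGF access to the receptor (1.99 ± 0.16 and 1.12 ± 0.15). The binding proteins lower than both were *Igfbp2* (-1.75 ± 0.17 and -2.64 ± 0.17), *Igfbp6* (-1.37 ± 0.32 and -2.02 ± 0.32) and *Igfbp7* (-1.92 ± 0.28 and -2.84 ± 0.28). The receptors had positive values that were not called against IgG RIP, 0.96 ± 0.17 for *Igf1r*, 0.83 ± 0.10 for *Insr* and 0.13 ± 0.12 for *Igf2r*, the clearance receptor for IGF2 that is itself imprinted. Against input *Igf1r* was called higher (1.30 ± 0.17, edgeR FDR = 0.00011). The ligand *Igf1* was higher than IgG RIP (2.01 ± 0.34), where *Igf2* stood at -0.74. Against input *Igf1* was not called, with means of 55.9 CPM in CELF2-KI RIP and 25.5 in input. Between IgG RIP and input the genes of the axis spanned -0.99 to 0.79, short of 2-fold in each case.

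Among 49 other imprinted genes that could be tested, CELF2-KI RIP had 9 called higher and 3 lower against IgG RIP, and 13 higher and 4 lower against input. Their median log2 fold changes were 0.19 and 0.70. With noncoding genes, which this list holds too, the shares over all genes were 11.1% and 12.4% against IgG RIP, 16.7% and 12.8% against input, and 6.3% and 7.76% against both. *Mkrn3*, *Peg12*, *Zim1*, *Peg13*, *Kcnk9* and *Casd1* were higher than both controls and *Commd1* was lower. *Mkrn3* (1.14 ± 0.16 and 1.62 ± 0.16 against IgG RIP and input) and *Peg12* (1.26 ± 0.21 and 1.15 ± 0.20) lie in the domain of *Ube3a*, and *Zim1* (1.07 ± 0.19 and 1.10 ± 0.18) is the neighbour of *Peg3*. *Peg13*, a noncoding RNA (1.31 ± 0.10 and 1.27 ± 0.10), and *Kcnk9*, a potassium channel (1.09 ± 0.12 and 1.17 ± 0.12), belong to a shared domain. *Casd1* stood at 2.09 ± 0.26 and 1.03 ± 0.24. *Commd1* stood at -2.01 ± 0.21 and -2.67 ± 0.21.

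**Figure D4:**
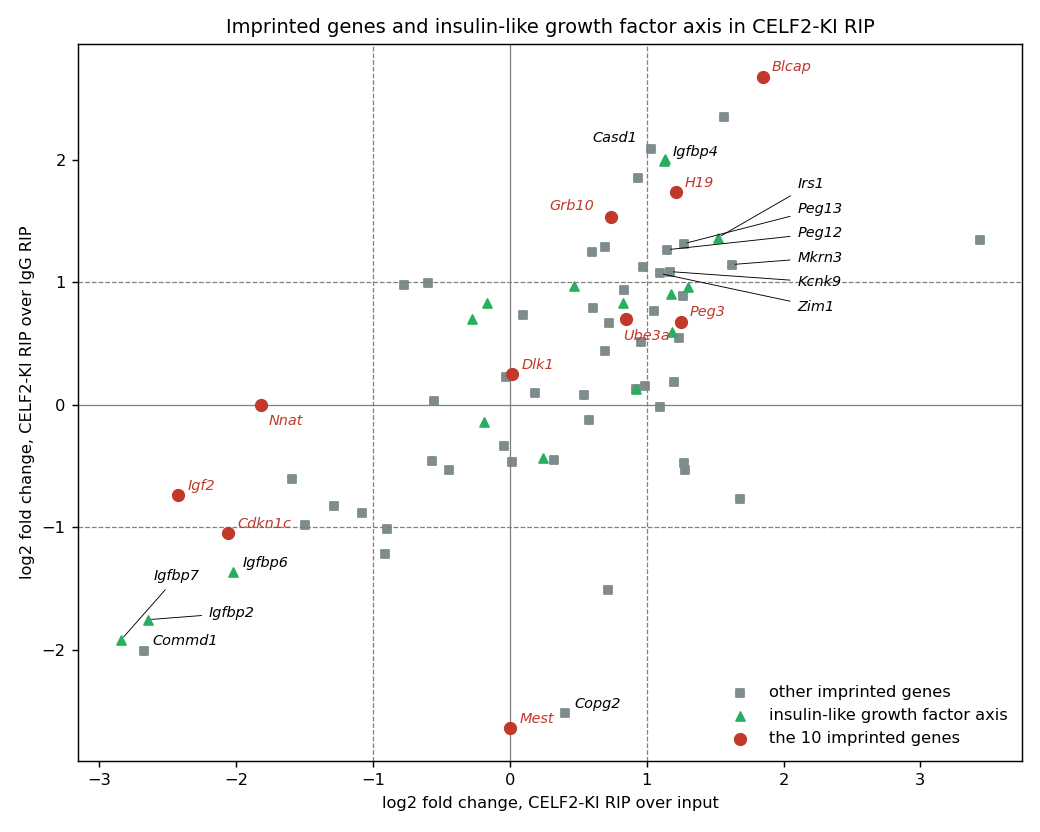
Log2 fold changes in CELF2-KI RIP, relative to input (x axis) and to IgG RIP (y axis), for the 10 imprinted genes (circles), the other imprinted genes (squares) and the insulin-like growth factor axis (triangles), with dashed lines at 2-fold. *Blcap* and *H19* lie at the upper right, *Cdkn1c* and *Igf2* at the lower left with *Igfbp2*, *Igfbp6*, *Igfbp7* and *Commd1*, and *Mest* at the bottom beside *Copg2*.

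To show which other genes had a like profile, the 2 protein-coding genes with the highest Pearson correlation of log2 CPM over the 9 libraries were taken for each gene. The 9 points are 3 libraries of each of 3 conditions and share those conditions, so the coefficients are descriptions across 9719 genes (9720 for *H19* and *Dlk1*). *Blcap* had the closest likeness, with *Lrfn1* (r = 0.998) and *Slc6a17* (r = 0.998). *Grb10* went with *Rpl22* (0.996) and *Cplx1* (0.992), *Mest* with *Otof* (0.995) and *Ankrd13d* (0.992), and *Peg3* with *Brd3* (0.994) and *Lonrf1* (0.993). *Cdkn1c* went with *Poldip2* (0.989) and *Cyb5r3* (0.989), *Igf2* with *Zbtb12* (0.985) and *Nt5m* (0.979), and *H19* with *Scrt2* (0.983) and *Tshz3* (0.983). For *Nnat* they were *Fbll1* (0.972) and *Tmed3* (0.972), and for *Ube3a* *Akap5* (0.972) and *Dnm3* (0.970). *Dlk1*, at low counts and overlapping in all conditions, had the weakest match, with *Alg13* (0.723) and *Itgam* (0.712). None of these matches is on the list of other imprinted genes. That list is short beside the 9719 genes compared, so no conclusion is drawn from this.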

How the data were processed

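RIP-seq libraries (9, with 3 per condition) were depleted of rRNA and made directionally. Per the labels and the paper, reads were checked with FastQC 0.11.9, trimmed with fastp 0.23.4, cleared of rRNA with Ribodetector 0.3.1 and pseudoaligned with kallisto 0.51.1, and the build is mm10. The authors deposited estimated counts, 1 row per transcript and 1 column per library, without normalization, and all 9 columns were used. The paper names an Ensembl transcriptome, while the rows carry RefSeq accessions.

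Rows were matched by accession to a RefSeq gene table of GRCm38.p6, summed per gene and rounded. The 15263 protein-coding genes that reached 0.5 CPM in 3 or more libraries were fitted in edgeR 4.0.16 (R 4.3.3, limma 3.58.1) with TMM scaling and a mean per condition, and tested with glmQLFTest and Benjamini-Hochberg adjustment. *H19* and other noncoding genes came from the same model over 18780 genes with the protein-coding library sizes and scaling factors, and rows from a fit over 43019 rows. The SE is the log2 fold change divided by the square root of the F statistic. A condition with at most 3 counts in each library was taken as at the floor, and folds against it are bounds. Standard errors and floors carry no account of duplicate reads, since reads had no molecular identifiers. The rest was done in Python 3.11.15 (pandas 2.3.3, figures in matplotlib 3.10.9), and DESeq2 1.42.0 was an alternative. The steps were tested on simulated data.

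The 10 genes, the gene lists and the tests were chosen with earlier results of these data known. Genes named are the 10, their 2 closest profiles each among genes with a mean of at least 10 CPM, genes that overlap them, and genes of the 2 related lists called against both controls. Any other gene was named after its values were seen, among them *Insr*, *Igf1*, *Igf1r* and *Igf2r*. Cell type lists were leptomeninges, choroid plexus, pericyte, endothelium, erythroid, microglia, radial glia and cortical neuron markers.

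Replicates differed by more than sampling noise (chi-square per gene 12 to 44.2). Deviations from the condition mean correlated weakly between same-numbered libraries of CELF2-KI RIP and input (0.18, 0.144 and 0.229 for numbers 1, 2 and 3, over 11530 genes). The values were lower for IgG RIP and input (0.11, 0.104 and 0.0364) and of mixed sign for CELF2-KI RIP and IgG RIP (-0.106, 0.0565 and -0.0373). Different-numbered libraries were not compared in this way, so these values do not establish that the numbers are pairs. A fit with the replicate block was an alternative.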

Additional observations from a re-analysis of the deposited data

How the results depend on the processing

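Of the 15 single-gene calls, 7 held under every alternative run, and no called value changed sign. The replicate block left the counts of called genes at 5 (CELF2-KI RIP against IgG RIP), 6 (against input), 4 (IgG RIP against input) and 3 (both controls), and changed no single call. Tested against 2-fold with glmTreat, the counts were 3 against IgG RIP (*H19* and *Cdkn1c* lost), 4 against input (*H19* and *Peg3* lost), 1 for IgG RIP against input (*Igf2*, *Nnat* and *Cdkn1c* lost) and 1 against both controls (*Blcap* left). Leaving out 1 library gave 4 to 5, 5 to 6, 3 to 4 and 2 to 3. The scaling moved the median of all genes from -0.06 to -0.42 against IgG RIP and from 0.19 to -0.27 against input when total counts were used. Values that changed sign were all uncalled. For CELF2-KI RIP against input, *Dlk1* was -0.12 with DESeq2 size factors, -0.12 with the DESeq2 Wald test, -0.46 with total counts, -0.19 with TMM over coding and noncoding genes, -0.21 with only the 2 conditions compared and -0.13 to 0.20 with 1 library left out. *Mest* in that comparison was -0.14, -0.14, -0.46, -0.21 and -0.22 in the same order, -0.16 with curated transcripts and -0.10 to 0.067 with 1 library left out. Against IgG RIP, *Dlk1* was -0.13 with total counts and -0.24 with curated transcripts, *Peg3* was -0.036 with curated transcripts, and *Nnat* was -0.37 to 0.17 with 1 library left out. Between IgG RIP and input, *Dlk1* was 0.43 with curated transcripts and -0.39 to 0.056 with 1 library left out, and *Ube3a* was -0.0051 with TMM over coding and noncoding genes and -0.39 with curated transcripts. The cause was not tested. With only the 2 conditions compared, calls were also lost for *Cdkn1c* against IgG RIP (-1.09, edgeR FDR = 0.0129) and for *H19* against input (0.99). All 3 calls of *Cdkn1c* were lost with curated transcripts.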

Other observations

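*Kcnq1ot1*, *Airn* and *Mirg*, noncoding RNAs of imprinted clusters named after their values were seen, were higher in IgG RIP than in input. *H19* was not called there. In that comparison 1037 of 15263 protein-coding genes (6.79%) were called higher. With noncoding genes included it was 2572 of 18780 (13.7%), so such a call was not particular to RNAs of imprinted clusters. Not all noncoding RNAs of imprinted clusters were far apart between IgG RIP and input. Mean levels in IgG RIP and input were 299 and 309 CPM for *Peg13*, 382 and 293 for *Rian*, and 946 and 692 for *Meg3*. *Kcnq1ot1*, the long antisense RNA of the *Cdkn1c* domain, was higher than input in IgG RIP (2.44 ± 0.29, edgeR FDR = 0.000229) and, like *H19*, in CELF2-KI RIP (1.68 ± 0.28, edgeR FDR = 0.000569). Between the RIPs it stood at -0.77 ± 0.27, which was not called. *Airn*, the antisense RNA of *Igf2r*, was also higher than input in IgG RIP (1.81 ± 0.33, edgeR FDR = 0.00186) and in CELF2-KI RIP (1.28 ± 0.33, edgeR FDR = 0.00735), with -0.53 ± 0.33 between the RIPs, not called. *Mirg*, a microRNA host transcript of the *Dlk1* domain, was higher in IgG RIP than in input (2.22 ± 0.31), lower in CELF2-KI RIP than in IgG RIP (-1.51 ± 0.32, edgeR FDR = 0.0026), and at 0.71 ± 0.31 in CELF2-KI RIP against input (edgeR FDR = 0.0705), not called.

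In the *Dlk1* domain, *Rian* was higher in CELF2-KI RIP than in input (1.27 ± 0.16) and stood at 0.88 ± 0.16 against IgG RIP, under 2-fold. *Meg3* stood at 0.51 ± 0.26 against IgG RIP and 0.96 ± 0.26 against input, and *Rtl1* at 0.15 ± 0.21 and 0.99 ± 0.21, and neither was called. In the *Ube3a* domain, *Ndn* was higher than IgG RIP (1.85 ± 0.18) and stood at 0.94 ± 0.18 against input. *Igf2os*, antisense to *Igf2*, had a mean of 1.46 CPM in CELF2-KI RIP, 1.68 in IgG RIP and 1.81 in input and was not called in any comparison. *Peg3os* was at 0 in all 9 libraries.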
